A study of Homo sapiens with 4 samples.

Results

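RUNX1, RUNX2 and RUNX3, their shared partner CBFB, and 6 members of the ETS family (ETS1, ETS2, ELK3, ETV4, ETV5 and FLI1) are described here by the H3K27ac peaks at their start sites and in their loci, 10 genes of 19970 protein-coding genes in all. A peak counted as a start-site peak when it touched the 1 kb on either side of the start of a basic transcript of GENCODE release 44, and as a locus peak when it touched the gene or the 100 kb on either side of it (hg38). The study treated triple-negative breast cancer cells with TWEAK, a cytokine of the TNF family that signals through the receptor Fn14. The data used here are 4 peak lists, from replicate 1 and replicate 2 of MDA-MB-231 and of Hs578T, both established lines. Every library came from cells starved for 8 h in Opti-MEM, given TWEAK at 10 ng/ml for 48 h with fresh TWEAK after 24 h, and grown for another 72 h after it was washed out, according to the labels (the study's own text gives a longer time, which was not settled here). The study's methods give at least 2 biological replicates for the assay, and the labels do not say whether a pair of lists came from separate cultures. No untreated library was analysed here, so no value below measures an effect of TWEAK.

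H3K27ac, acetylation of lysine 27 of histone H3, sits at promoters and enhancers that are in use. RUNX proteins bind DNA through their Runt domain, and CBFB, which does not itself contact DNA, strengthens that binding. Each RUNX gene is read from a distal and a proximal promoter that give proteins with different N termini. ETS proteins share the ETS domain, which recognises a GGA core. ELK3 is a ternary complex factor that works with SRF, ETV4 and ETV5 are PEA3-type factors that respond to ERK signalling, and FLI1 is best known from blood and endothelial cells. ETS1 and FLI1 lie beside each other and point in opposite directions.

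MDA-MB-231 replicate 1 held 209 peaks in all, against 43353 in MDA-MB-231 replicate 2, 46330 in Hs578T replicate 1 and 44920 in Hs578T replicate 2. It had no peak in any of the 10 loci, so each value of MDA-MB-231 below rests on replicate 2. The lists hold no read counts, so sequencing depth is unknown and an unmarked site was not detected rather than shown to be free of the mark. The 4 lists can be split into pairs in 3 ways, so an exact two-sided permutation test of the lines cannot go below 0.333 and none was run. Fold enrichment is the signal of a peak over the local background set for its library, whose peaks were called against input. Its size is compared here between peaks of a list, not between lists. In each large list the start sites of VIM, KRT8 and KRT18, which breast cancer cells of this kind use, were marked. Those of ESR1 and PGR, which encode hormone receptors that triple-negative cells lack, were not. Between 58.5% and 60.2% of all protein-coding genes were marked in these lists, so such a small set says little about the lines. Values below are given in the order MDA-MB-231 replicate 2, Hs578T replicate 1, Hs578T replicate 2.

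The promoters of the RUNX genes are shown first because the distal and the proximal ones were marked differently. Sequences run from 250 bases before to 50 bases after a RefSeq start site (GRCh38.p14), 5′ to 3′ on the strand of the gene, with capitals for the letters TGTGGTT (bound by RUNX proteins), CCGGAAG (ETS) and TGACTCA (AP-1) on either strand. The windows are chr21:34888650-34888949 (minus strand) for RUNX1 proximal, chr6:45328080-45328379 and chr6:45422025-45422324 (plus strand) for RUNX2, and chr1:24964961-24965260 and chr1:24930227-24930526 (minus strand) for RUNX3. The distal promoter of RUNX1 is named only.
RUNX1 proximal: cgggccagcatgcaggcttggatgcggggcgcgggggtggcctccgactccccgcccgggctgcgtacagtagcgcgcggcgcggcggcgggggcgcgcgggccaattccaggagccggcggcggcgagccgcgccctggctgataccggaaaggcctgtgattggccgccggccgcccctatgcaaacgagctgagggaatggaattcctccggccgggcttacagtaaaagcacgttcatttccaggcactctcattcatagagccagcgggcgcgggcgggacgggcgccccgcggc
RUNX2 distal: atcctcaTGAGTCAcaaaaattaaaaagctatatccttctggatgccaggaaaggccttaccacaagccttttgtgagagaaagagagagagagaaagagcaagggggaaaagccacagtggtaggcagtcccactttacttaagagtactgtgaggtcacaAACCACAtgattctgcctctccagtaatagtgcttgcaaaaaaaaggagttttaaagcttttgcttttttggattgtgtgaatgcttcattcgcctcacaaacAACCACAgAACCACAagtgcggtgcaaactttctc
RUNX2 proximal: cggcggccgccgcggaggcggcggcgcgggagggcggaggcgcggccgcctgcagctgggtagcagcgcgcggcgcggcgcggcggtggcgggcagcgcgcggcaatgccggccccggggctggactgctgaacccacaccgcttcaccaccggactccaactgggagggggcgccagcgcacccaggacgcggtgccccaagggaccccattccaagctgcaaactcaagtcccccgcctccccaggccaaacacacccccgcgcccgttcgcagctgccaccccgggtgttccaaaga
RUNX3 distal: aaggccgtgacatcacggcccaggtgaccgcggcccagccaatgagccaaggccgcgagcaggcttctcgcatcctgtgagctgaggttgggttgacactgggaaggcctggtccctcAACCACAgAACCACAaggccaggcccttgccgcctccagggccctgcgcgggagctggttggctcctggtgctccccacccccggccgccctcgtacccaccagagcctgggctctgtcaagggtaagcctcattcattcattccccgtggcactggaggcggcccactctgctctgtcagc
RUNX3 proximal: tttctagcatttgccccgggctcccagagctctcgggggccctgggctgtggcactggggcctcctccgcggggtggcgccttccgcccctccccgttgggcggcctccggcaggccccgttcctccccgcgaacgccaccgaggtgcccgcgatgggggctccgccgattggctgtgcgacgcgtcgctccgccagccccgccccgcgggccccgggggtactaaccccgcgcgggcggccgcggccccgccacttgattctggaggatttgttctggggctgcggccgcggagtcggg

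The distal promoters of RUNX2 and RUNX3 held 3 and 2 RUNX matches, and none of the 3 proximal promoters held any. RUNX2 distal also held 1 AP-1 match, and no ETS match was found in the 5 windows. Among all 35116 promoters of the table, 4.27% held the RUNX letters, 10.3% the ETS letters and 4.95% the AP-1 letters. The 2 distal promoters shared a run of 18 bases, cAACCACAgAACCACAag, that holds a pair of RUNX matches spaced by 1 base. It lies 14 to 31 bases after the RUNX2 start site and 116 to 133 bases before the RUNX3 start site. Such a pair (AACCACANAACCACA on either strand) was found in 2 of the 35116 promoters, those of RUNX2 and RUNX3. The pair was taken from these promoters, so both were bound to match. The distal promoter of RUNX1 was not among the promoters searched, so whether it holds the pair is not known here. GC content was 42.7% in RUNX2 distal, 66.3% in RUNX3 distal and between 72.0% and 76.0% in the proximal windows.

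Of the 10 genes, 8 had a start-site peak in each large list, and they were the same 8: all but RUNX3 and FLI1. Over all protein-coding genes the share was 60% in MDA-MB-231 replicate 2, 60.2% in Hs578T replicate 1, 58.5% in Hs578T replicate 2 and 0.0701% in MDA-MB-231 replicate 1. It was 57.6% in all 3 large lists together, and 3.77% of genes were marked in some of these lists and not in others, as none of the 10 was. Counted by their canonical start alone, 7 of 10 were marked, since ETS1 has no peak there. The shares over all protein-coding genes count any basic start, and the share at the canonical start alone was not computed. With replicate 1 counted, the mean of MDA-MB-231 was 4 of 10, and without it 8. The start sites fell into 20 groups, joined where they lay within 500 bp, of which 14, 14 and 13 were marked.

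**Figure D1:**
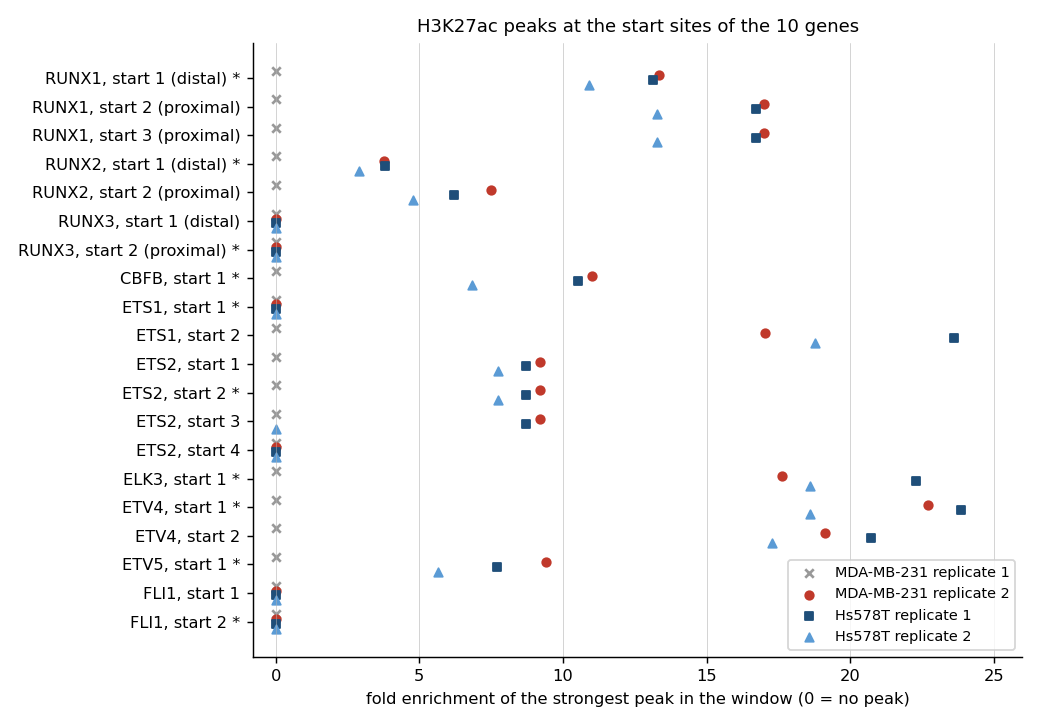
Fold enrichment of the strongest peak within 1 kb of each of the 20 groups of start sites (rows; an asterisk marks the canonical start) in the 4 lists, with 0 for no peak. ETS1 start 2, ELK3 and ETV4 lie highest, the distal promoter of RUNX2 is the lowest of those marked, and MDA-MB-231 replicate 1 is at 0 throughout.

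RUNX1, a master regulator of blood formation that is also expressed in breast epithelium, was marked at both promoters. The proximal promoter (starts at 34888690 and 34887183 on chromosome 21) lay within a single peak of 14573, 15347 and 14330 bp, with fold enrichments of 17.01, 16.7 and 13.3. In each list that peak was wider than 99.7% of all peaks. The distal promoter (35049298-35049344), 161 kb upstream, lay in a peak of 6413, 6477 and 6626 bp with fold enrichments of 13.4, 13.1 and 10.9. Both windows were covered in full (2001 and 2047 bp), and in each of the 3 large lists the proximal peak was both wider and stronger than the distal one.

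RUNX2, known as the master factor of osteoblasts, was marked weakly at the distal and more broadly at the proximal promoter. The distal starts (45328317-45328727 on chromosome 6) had a peak of 971, 807 and 814 bp with fold enrichments of 3.78, 3.79 and 2.90, which covered 971, 807 and 814 of the 2411 bp of the window. Of all peaks in the list, 26.2%, 33.0% and 10.5% were as weak or weaker. The proximal starts (45422485-45422577), 93.8 kb downstream, were covered in full (2093 bp) by a peak of 5167, 4516 and 2881 bp with fold enrichments of 7.50, 6.21 and 4.78. The order proximal above distal was therefore the same for RUNX1 and RUNX2 in the 3 large lists, in width as in fold enrichment. The distal mark of RUNX2 was the one lost when each list was cut to its strongest 50% of peaks, which left 1 of 3 distal RUNX promoters marked.

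RUNX3, best known from T cells and neurons, had no peak at either promoter (24965010 and 24930276 on chromosome 1, 34.7 kb apart) in any list. Its locus held 3, 7 and 4 peaks covering 4735, 5997 and 4688 bp. Of its 8 regions, 3 were found in all 3 large lists. The strongest of these, in an intron 19.1 kb downstream of the canonical start (chr1:24910556-24911884 in MDA-MB-231 replicate 2), was 1329, 1382 and 1215 bp wide with fold enrichments of 7.24, 7.11 and 7.41. RUNX3 was thus the member with the least coverage, and the map of the RUNX loci shows it without a peak at either dotted line.

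**Figure D2:**
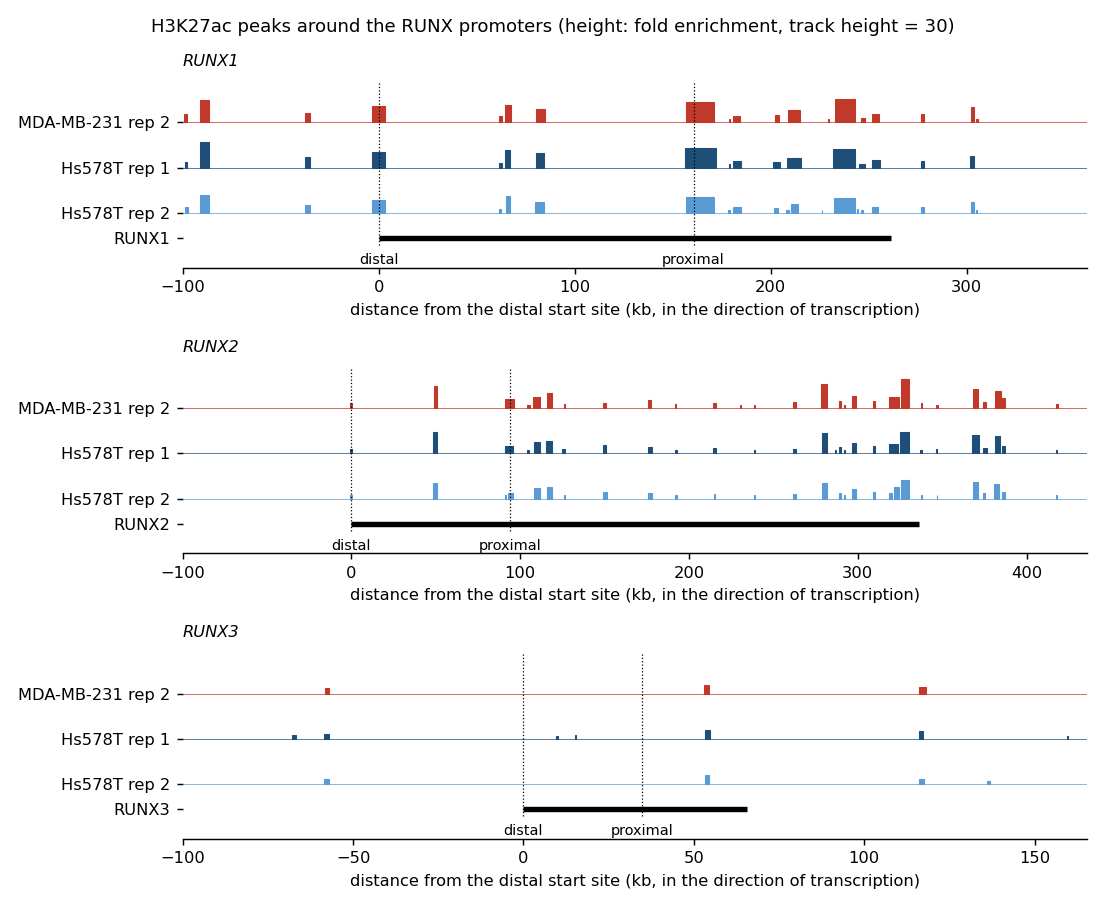
Peaks around the distal and proximal promoters (dotted lines) of RUNX1, RUNX2 and RUNX3 in the 3 large lists, by distance from the distal start site in kb along the direction of transcription; the height of a block is its fold enrichment, with 30 as the full height of a track, and black bars are the genes (RUNX1 from its distal start). The block at the proximal RUNX1 promoter is 14330 to 15347 bp wide, RUNX2 has its tallest blocks near its 3′ end, and RUNX3 has none at either promoter.

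Beyond the promoters, RUNX1 and RUNX2 lay among many peaks. The RUNX1 locus held 39, 35 and 42 peaks covering 99.8, 102.7 and 96.1 kb, or 7.04%, 7.25% and 6.78%. The annotated gene spans 1217 kb because of long upstream transcripts. Around the canonical transcript alone (262 kb) the covered share was 15.3%, 16.2% and 14.6%. A broad intronic peak toward the 3′ end (chr21:34806386-34816659 in MDA-MB-231 replicate 2) measured 10274, 11543 and 10401 bp with fold enrichments of 19.1, 15.5 and 12.9, and it was the strongest of the locus in MDA-MB-231 replicate 2. In both Hs578T lists the strongest was instead an upstream peak about 88.9 kb before the canonical start, with fold enrichments of 18.3, 21.2 and 15.2. This upstream peak lay at a start site outside the protein-coding set. Neither order could be tested, and both peaks were present in all 3 large lists.

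The RUNX2 locus held 28 peaks in each large list, covering 60042, 60183 and 51353 bp (11.2%, 11.2% and 9.58%). Its strongest peak lay in an intron near the 3′ end, 328 kb from the canonical start (chr6:45654181-45658518 in MDA-MB-231 replicate 2), and measured 4338, 5000 and 4986 bp with fold enrichments of 24.1, 17.6 and 15.7. It was far stronger within each list than the RUNX2 promoters. Distal peaks over 2.5 kb from every start site and close to each other (by the default distance of the tool ROSE) were joined into clusters, and the one holding this peak spanned 69280, 68589 and 68369 bp with 21597, 21643 and 19227 covered bp. By covered bases it ranked 69 of 18177, 104 of 19411 and 107 of 18903 clusters. The start site of SUPT3H, a subunit of SAGA-type acetyltransferase complexes read from within the RUNX2 locus, was also marked, with fold enrichments of 18.3, 17.5 and 13.2.

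CBFB was marked at its start sites (67029116 and 67029149 on chromosome 16) by a peak of 1985, 2238 and 2037 bp with fold enrichments of 11.0, 10.5 and 6.83. The peak covered 1770, 1835 and 1793 of the 2034 bp of the window, and it was wider than 69.0%, 73.1% and 70.4% of the peaks of its list. The locus held 14, 13 and 13 peaks covering 16224, 19036 and 16334 bp. Many of these belong to neighbours, since 9 of the 15 other protein-coding genes with a start site in the locus were marked in all 3 large lists, among them E2F4, TRADD and NOL3. In MDA-MB-231 replicate 2 and Hs578T replicate 2 the strongest peak of the locus was the one at MATCAP1, with fold enrichments of 12.9 and 8.93.

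Among the ETS genes, ELK3 and ETV4 had strong peaks at their canonical starts. ELK3 (96194375-96194545 on chromosome 12) had a peak of 6643, 6007 and 6044 bp with fold enrichments of 17.6, 22.3 and 18.6, and it was the only member whose strongest locus peak was its own start-site peak in all 3 large lists. ETV4 (43545671-43546340 on chromosome 17) had one of 3514, 3703 and 2841 bp with fold enrichments of 22.7, 23.9 and 18.6. An inner start of ETV4 (43530434) had another, of 4399, 4731 and 4207 bp with fold enrichments of 19.1, 20.7 and 17.3. These peaks were among the stronger ones, at percentiles of fold enrichment between 92.9 and 98.0 of their list.

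ETV5 and ETS2 were marked more weakly. ETV5 (186108675-186109089 on chromosome 3) had a peak of 3550, 3458 and 3489 bp with fold enrichments of 9.41, 7.71 and 5.65, which covered its window in full (2415 bp). ETS2 had 1 peak over 4 start sites (38805183 and 38805895-38805983 on chromosome 21), of 3170, 3773 and 2328 bp with fold enrichments of 9.21, 8.70 and 7.73. This peak reached the window of a further start (38808094) by 633 and 62 bp in the first 2 lists and did not reach it in Hs578T replicate 2. A last ETS2 start (38809403) was unmarked. For ETV5, ETS2 and both marked RUNX2 promoters, a stronger peak lay elsewhere in the locus in each large list.

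ETS1 was marked at its inner starts and not at its outer one. The canonical start (128587558 on chromosome 11) had no peak within 1 kb in any list. The inner starts (128522201-128522310) lay in a peak of 8851, 9216 and 9220 bp with fold enrichments of 17.03, 23.6 and 18.8, which covered their window in full (2110 bp). FLI1, in contrast, had no peak at any of its starts (128686535 and 128693916-128694092). Its introns, however, held a pair of strong peaks. The one 22.4 kb downstream of the canonical start (chr11:128713809-128719162 in MDA-MB-231 replicate 2) was 5354, 5723 and 5731 bp wide with fold enrichments of 20.8, 29.1 and 22.8, which in each Hs578T list was above 98.8% of all peaks. The one just before it (chr11:128708020-128712213) was 4194, 4160 and 4209 bp wide with fold enrichments of 11.7, 21.5 and 19.6.

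The strongest peak of a locus was a start-site peak of the member in no large list for 6 of the 10 genes. The same share over all protein-coding loci was not computed, so this count is not known to differ from that of other genes. The strongest peaks outside the start-site windows of ETS2, ETV4 and FLI1 are shown by the central 300 bases of the part that the 3 large lists share (hg38, plus strand, capitals as above), since they lead these loci outside those windows. They span chr21:38839638-38839937, chr17:43469145-43469444 and chr11:128716336-128716635.
ETS2 intronic peak: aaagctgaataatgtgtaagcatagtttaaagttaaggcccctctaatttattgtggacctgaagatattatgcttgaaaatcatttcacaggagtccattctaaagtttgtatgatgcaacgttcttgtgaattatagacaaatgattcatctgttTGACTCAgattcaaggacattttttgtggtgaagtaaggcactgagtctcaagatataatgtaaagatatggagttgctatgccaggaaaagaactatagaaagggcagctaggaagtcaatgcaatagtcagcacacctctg
ETV4 intergenic peak: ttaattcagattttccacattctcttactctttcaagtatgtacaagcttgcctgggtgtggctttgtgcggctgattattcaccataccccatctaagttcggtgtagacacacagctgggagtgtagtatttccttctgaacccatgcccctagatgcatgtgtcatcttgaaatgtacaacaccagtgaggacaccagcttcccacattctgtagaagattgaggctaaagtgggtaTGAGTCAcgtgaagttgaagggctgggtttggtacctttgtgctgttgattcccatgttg
FLI1 intronic peak: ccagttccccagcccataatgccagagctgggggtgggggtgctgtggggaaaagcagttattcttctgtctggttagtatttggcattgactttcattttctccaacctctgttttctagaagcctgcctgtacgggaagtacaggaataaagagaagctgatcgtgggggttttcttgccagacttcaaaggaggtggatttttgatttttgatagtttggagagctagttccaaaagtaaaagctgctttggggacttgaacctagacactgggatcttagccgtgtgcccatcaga

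The ETS2 and ETV4 sequences held 1 AP-1 match each, and the FLI1 sequence held none of the 3 sets of letters. The ETS2 peak, 33.9 kb downstream of the canonical start in an intron of the unnamed gene ENSG00000205622, was 2542, 2926 and 2558 bp wide with fold enrichments of 19.0, 17.8 and 13.8. The ETV4 peak, intergenic, 77.1 kb downstream of the canonical start and 2367, 2635 and 2290 bp from the nearest start site of any gene, was 3915, 3837 and 3657 bp wide with fold enrichments of 21.6, 26.98 and 24.7. In both Hs578T lists it was stronger than the ETV4 start-site peaks, and in MDA-MB-231 replicate 2 the canonical start was the stronger. At ELK3 an intronic peak 24.9 kb in (chr12:96217633-96220906) had fold enrichments of 15.3, 19.5 and 17.01. At ETV5 an intergenic peak 149 kb downstream (chr3:185958945-185960903), at a start site outside the protein-coding set, had fold enrichments of 18.4, 14.6 and 11.2.

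The ETS1 and FLI1 loci were covered less in MDA-MB-231 replicate 2 than in Hs578T by more than the Hs578T lists differed. At ETS1 the covered share was 11.8%, 18.3% and 17.9%, which places the locus above 88.2%, 95.8% and 96.8% of protein-coding loci in its list. The mean of the Hs578T lists was 18.1% ± 0.305 (SD, n = 2). At FLI1 it was 5.66%, 7.65% and 7.70%, with a Hs578T mean of 7.68% ± 0.0353 (SD, n = 2). The windows of these genes overlap and share a few peaks, so they are not separate cases. Of all protein-coding loci, 23.1% lay below both Hs578T lists by more than those differ and 7.79% above.

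The ETS1 difference lay in the breadth of peaks within the gene and at its 3′ end. A stretch in the body (chr11:128492423-128512838) was covered by 1 peak over 20127 bp in Hs578T replicate 1 and over 18723 bp in Hs578T replicate 2, where a single peak held 17968 bp of it. In MDA-MB-231 replicate 2 it was broken into 4 peaks over 12619 bp. A stretch at the 3′ end (chr11:128451150-128475837) was covered over 12654 bp in 5 peaks, against 20483 bp in 2 peaks and 22087 bp in 3 peaks. The peak at the inner starts, by contrast, had nearly the same width in the 3 lists.

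Joined into clusters, the distal peaks of ETS1 spanned 66919 bp in Hs578T replicate 1, with 45310 covered bp, rank 12 of 19411 clusters. They spanned 66941 bp in Hs578T replicate 2, with 44239 covered bp, rank 13 of 18903. In MDA-MB-231 replicate 2 the largest ETS1 cluster spanned 24954 bp with 14197 covered bp, rank 234 of 18177. The size of these clusters depends on the joining, since weak regions between the stretches link them. One (chr11:128481507-128482827, fold enrichments of 2.89 and 2.78) was present in both Hs578T lists and not in MDA-MB-231 replicate 2. Another (chr11:128483753-128484543, fold enrichment 2.61) was present in Hs578T replicate 1 only. Without joining, the distal peaks of the ETS1 locus covered 29460, 50342 and 49558 bp. The largest FLI1 cluster had 11874, 14759 and 16017 covered bp, with ranks 361, 262 and 183. The shared bases of ETS1 peaks, as a fraction of all bases covered in either list, were 0.589 and 0.607 between MDA-MB-231 replicate 2 and the Hs578T lists and 0.820 between the Hs578T lists. Over all chromosomes the same fractions were 0.770, 0.759 and 0.780.

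**Figure D3:**
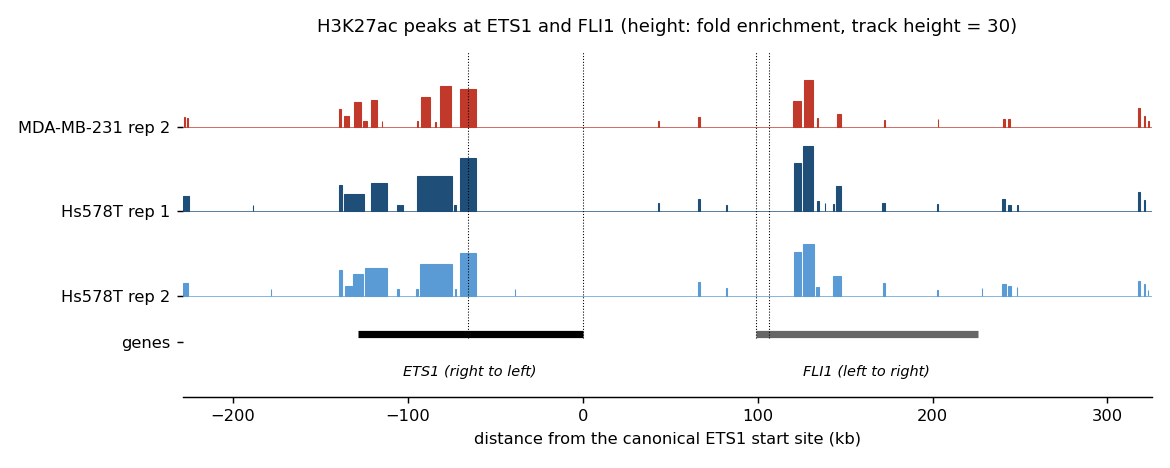
Peaks at ETS1 and FLI1 in the 3 large lists by distance from the canonical ETS1 start site in kb; block height is fold enrichment, with 30 as the full height of a track, bars are the genes and dotted lines their start sites. Hs578T has broad blocks across the ETS1 body where MDA-MB-231 replicate 2 has several narrow ones, the canonical ETS1 start and both FLI1 starts have no block, and the paired FLI1 intronic blocks stand in each list.

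ETV5 was the locus above both Hs578T lists by more than these differed, at 2.97%, 2.42% and 2.42%. A weak intronic peak found in MDA-MB-231 replicate 2 alone (chr3:186097553-186098759, fold enrichment 2.87) gave most of it, and with peaks limited to a q-value of at most 0.01 the difference went from 1.44 kb to 0.228 kb. The other 7 loci lay within that spread. They include ELK3, which was covered by 19222, 19091 and 19214 bp in 11 peaks per list, and ETV4 and ETS2, at 9.22%, 10.6% and 9.25% and at 8.58%, 9.60% and 7.54%. By order alone, 2 loci were above both Hs578T lists (ELK3 and ETV5), 4 below (ETS1, ETV4, FLI1 and CBFB) and 4 between. Of all protein-coding loci, 17.8% lay above and 43.8% below, near the shares among the members.

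**Figure D4:**
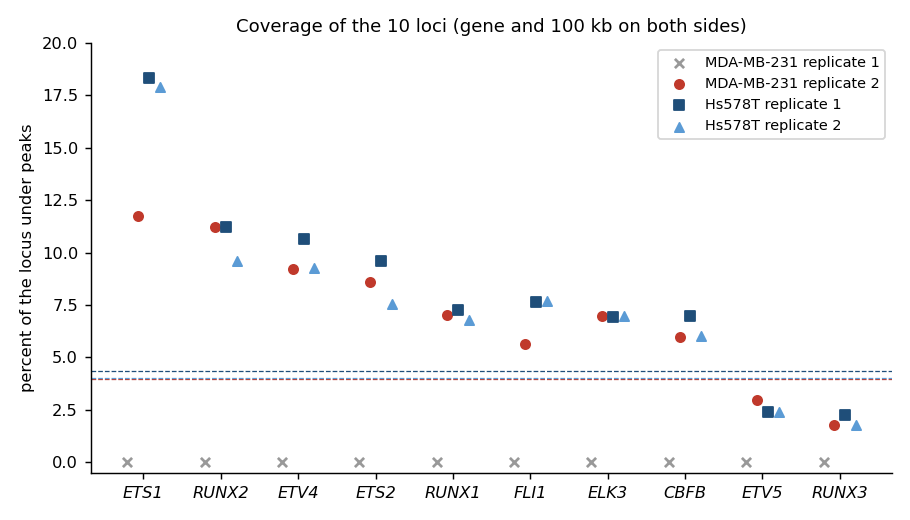
Percent of each locus (the gene and 100 kb on both sides) under peaks in the 4 lists, loci ordered by their mean over the 3 large lists; dashed lines are the medians over all protein-coding loci in each large list (3.96% in MDA-MB-231 replicate 2, 4.37% and 4.002% in Hs578T). ETS1 lies highest with the Hs578T points apart from MDA-MB-231 replicate 2, ETV5 and RUNX3 lie below the medians, and MDA-MB-231 replicate 1 is at 0.

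Ordered by the mean over the 3 large lists, ETS1 came first and its values did not overlap those of RUNX2, the next. RUNX2, ETV4 and ETS2 overlapped with their neighbours, as did RUNX1, FLI1, ELK3 and CBFB. ETV5 and RUNX3 stood apart at the low end, and their ranges did not overlap. The median of the 10 loci was 7.01%, 7.45% and 7.26%, against medians of 3.96%, 4.37% and 4.002% over all protein-coding loci. Together the loci (4056 kb, overlaps counted once) were covered over 305.7, 344.3 and 316.1 kb, or 7.54%, 8.49% and 7.79%, where 2.70%, 2.99% and 2.77% of the genome was covered. Since the members were chosen with earlier results known, these figures are a description.

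Most of the peaks in these loci were common to MDA-MB-231 replicate 2 and the Hs578T lists. Merged across lists they made 167 regions, of which 124 (74.3%) were in all 3 large lists. Another 10 were in both Hs578T lists only and 8 in MDA-MB-231 replicate 2 only, with 9 in Hs578T replicate 1 only and 9 in Hs578T replicate 2 only. Over all chromosomes, 74.8% of the 50576 merged regions were in all 3 large lists, 5.51% in both Hs578T lists only and 3.79% in MDA-MB-231 replicate 2 only, against 5.99% and 4.79% of the regions in these loci, so the shares in these loci lay near those of the genome. No peak missing from another large list had a fold enrichment above 3.77, so the differing regions were weak ones. Of the 147 locus peaks of MDA-MB-231 replicate 2, 91.8% (95% Wilson interval 86.3 to 95.3) overlapped a peak of Hs578T replicate 1, against 94.2% of all its peaks. Of the 154 locus peaks of Hs578T replicate 2, 91.6% (86.1 to 95.0) overlapped Hs578T replicate 1 and 87.7% (81.5 to 92.0) MDA-MB-231 replicate 2, against 93.4% and 87.9% of all its peaks. Intervals cover counting error only. By the fraction of shared bases over all chromosomes, MDA-MB-231 replicate 2 was nearly as close to the Hs578T lists (0.770 and 0.759) as these were to each other (0.780).

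The start sites of other genes in the loci differed in a few places. MEOX1, near ETV4, was marked in both Hs578T lists (fold enrichments 3.03 and 3.59) and not in MDA-MB-231 replicate 2. KCNJ5, near FLI1, was marked in MDA-MB-231 replicate 2 and Hs578T replicate 2 (2.66 and 2.70) and not in Hs578T replicate 1. These peaks were as weak as the other unshared ones.

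The distal peaks of these loci held the RUNX letters in a smaller share than all distal peaks did. Within the central 500 bp they were found in 8 of 110 peaks in MDA-MB-231 replicate 2 (7.27%, 95% Wilson interval 3.73 to 13.7), against 15.1% of all distal peaks of the list. The shares were 8.11% of 111 (4.32 to 14.7) against 14.9% in Hs578T replicate 1, and 5.26% of 114 (2.43 to 11.0) against 14.9% in Hs578T replicate 2. The ETS letters were found in 0, 1 and 0 of these peaks, where all distal peaks had 2.52%, 2.44% and 2.53%. For a count of 0 the interval reaches 3.37% and 3.26%, which holds the share of all distal peaks. The intervals treat peaks as independent draws, though RUNX1 and RUNX2 supplied 31 and 25 of the 110 in MDA-MB-231 replicate 2. They are therefore no test of the RUNX or the ETS shares. The AP-1 letters were in 30.9%, 25.2% and 32.5% of the locus peaks and in 34.0%, 32.7% and 32.5% of all distal peaks. The lists share most of their peaks, so the 3 comparisons are not independent, and no test was run on them.

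Of the 22 other ETS genes, 14 were marked in all 3 large lists and 7 in none. The unmarked ones were ELF5, ERG, ETV3L, FEV, SPI1, SPIB and SPIC. ETV2 was marked in MDA-MB-231 replicate 2 and Hs578T replicate 1 (fold enrichments 9.10 and 9.20) and not in Hs578T replicate 2. Its locus was still covered over 5.86% in Hs578T replicate 2, and whether a peak lay just outside the window was not checked. Beside FLI1, the close relative ERG had little coverage in its locus, at 1.49%, 1.46% and 1.09%. Of 11 RUNX corepressors and partners, 7 were marked in each large list, and CBFA2T3, RUNX1T1, TLE2 and TLE4 were not. All 9 feedback genes of the ERK pathway on the list (such as DUSP6 and SPRY4, which dampen it) and all 5 ETS partner factors were marked in each large list. As these shares stand against a background near 60%, the 22 ETS genes, with 15, 15 and 14 marked (68.2%, 68.2% and 63.6%), were close to it.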

How the data were processed

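H3K27ac ChIP-seq was analysed in MDA-MB-231 and Hs578T cells, 2 lists per line, grouped by their titles. The authors trimmed reads with Trimmomatic, aligned them to hg38 with Bowtie2, called peaks per library against input with MACS2 and removed blacklisted regions with bedtools, and settings and versions are not given in the sources used here. The 9 columns of the deposited files match the broad mode of MACS2. They hold a score (10 times the −log10 q-value, used only to rank peaks), a ratio (the fold enrichment over local background, as deposited), the deposited −log10 p-value (not used) and the deposited −log10 q-value.

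From these, peaks were intersected with GENCODE release 44 (overlap of at least 1 bp) in Python 3.11.15 with pandas 2.3.3 and numpy 2.4.6, after the interval functions were tested on simulated data. Intervals for shares are 95% Wilson intervals from scipy 1.17.1. Percentiles are over all peaks of a list or all protein-coding genes. Distal and proximal RUNX promoters were told apart by the N terminus that the transcripts encode. All 10 members are named. In other gene lists, those unmarked in a large list or marked in some are named, and within a locus the strongest peak outside start-site windows and genes starting in a described peak. SPRY4, DUSP6, the example neighbours of CBFB the search for a run shared by the RUNX2 and RUNX3 promoters and the markers of the lines were chosen after values were seen. The members and lists were chosen with earlier results of these data known. Alternatives covered peak thresholds, windows, flanks, overlap, merging and leaving out each replicate.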

Additional observations from a re-analysis of the deposited data

How the results depend on the processing

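Limits come first from the lists: MDA-MB-231 rests on replicate 2, no reads were used, and no result comes from a test. No paired analysis was possible because no result comes from a test and 1 of the 4 lists holds no peak in these loci. Leaving out a replicate in turn gave 0 to 8 members with a start-site peak, 0 to 2 distal and 0 to 2 proximal RUNX promoters and 0 to 305.7 kb of covered bases for MDA-MB-231. For Hs578T it gave 8 members, 2 distal and 2 proximal promoters and 316.1 to 344.3 kb. With the strongest 50% of each list, the marked distal RUNX promoters went from 2 to 1 in Hs578T and from a mean of 1 to 0.5 in MDA-MB-231, and covered bases in Hs578T went from 330.2 to 253.0 kb. Covered bases in Hs578T were 292.7 kb with a flank of 50 kb, 481.1 kb with a flank of 200 kb and 282.0 kb with the canonical transcript as gene body, windows of another length. An overlap of at least 50% of both peaks lowered the shared share from 91.6% to 80.5% between the Hs578T lists and from 92.2% to 78.2% for MDA-MB-231 replicate 2 against Hs578T. Covered bases in MDA-MB-231 replicate 2 less the Hs578T mean ranged over 8 alternatives from -26.4 to -18.6 kb at ETS1. The range was -14.3 to -3.43 kb at FLI1 and 0.228 to 1.44 kb at ETV5, with the sign kept throughout. These loci were picked because MDA-MB-231 replicate 2 lay outside both Hs578T lists there. Leaving out either Hs578T list therefore could not change the sign, and the other alternatives draw on the same lists. Of 92 recomputed values, 67 stayed within the limit set for their kind and 25 moved beyond it. For covered bases that limit was the SD between the lists of a line. In MDA-MB-231 it was 216.2 kb, so even 0 and 305.7 kb counted as staying within it. The count of 67 is therefore no measure of stability for covered bases in MDA-MB-231. A reversal was defined only for the locus differences, and none reversed.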
